A study of Mus musculus with 16 samples.

Results

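The genes described here make up cholesterol and fatty acid synthesis and its control in mouse islets that lack the zinc finger factor Insm1 in adult beta cells. The list holds 31 genes. A gene was measured where the array annotation ties at least 1 probe set to it alone, and its brightest probe set over all arrays was used. This gave values for 30 of the 31 genes, among 18193 genes in all, and Acat2 was not analysed here. Mutant animals carried RIPcreER and the genotype Insm1flox/lacZ, and control animals carried RIPcreER and Insm1flox/+. Both groups thus had a tamoxifen-activated Cre driven by the rat insulin promoter, a floxed Insm1 allele and tamoxifen, given as a 25 mg pellet released over 21 days at 4 to 5 weeks of age. Islets were taken at 8 to 12 weeks from animals of mixed C57BL/6, 129/ola and CBA/J strain, with 8 preparations and 8 arrays per group. The lacZ allele was present in every cell of the mutants, whereas Cre acted in beta cells, and the controls could lose their floxed allele too and kept 1 intact copy. The series text calls the controls litter-matched, and the labels do not say that arrays of the same number were littermates.

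Cells make cholesterol from acetyl-CoA through mevalonate and isoprenoid units, which are joined to squalene, closed to lanosterol and trimmed to cholesterol. Fatty acids are built from the same acetyl-CoA, and are then elongated and desaturated. Both routes are switched on by the SREBP transcription factors, which are held in the endoplasmic reticulum with their escort Scap by the Insig proteins when sterols are plentiful, and are cut and released to the nucleus when sterols run low. Srebf2 mainly serves cholesterol genes and Srebf1 mainly fatty acid genes, which in the liver also respond to insulin. In beta cells, membrane lipids are needed for insulin granules and for their fusion at the cell surface.

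SREBP factors bind promoters next to NF-Y and Sp1 sites, so the windows before the start sites of 4 members are shown. They are those of Srebf1, which passed the test, Msmo1 and Lss, sterol enzymes named below, and Hmgcs1, the member with a match to the sterol regulatory element. Each window runs 5′ to 3′ over the 250 bases before a RefSeq transcript start on GRCm38.p6. Capitals mark matches on either strand to TCACNCCAC (sterol regulatory element), CCAAT (NF-Y box) and GGGCGG (Sp1 box), so ATTGG and CCGCCC are the same boxes on the opposite strand. Srebf1 has 3 listed starts on the minus strand, at chr11:60222582-60222831, chr11:60220628-60220877 and chr11:60210472-60210721. The Msmo1 window is chr8:64733579-64733828 on the minus strand, that of Lss is chr10:76531355-76531604 on the plus strand, and that of Hmgcs1 is chr13:119690101-119690350 on the plus strand.
Srebf1, first window: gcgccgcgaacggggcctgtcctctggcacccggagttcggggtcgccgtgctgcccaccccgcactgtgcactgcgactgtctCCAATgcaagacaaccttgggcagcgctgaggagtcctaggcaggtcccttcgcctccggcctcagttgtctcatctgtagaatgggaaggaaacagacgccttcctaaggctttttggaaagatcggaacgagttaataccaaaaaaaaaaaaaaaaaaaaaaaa
Srebf1, second window: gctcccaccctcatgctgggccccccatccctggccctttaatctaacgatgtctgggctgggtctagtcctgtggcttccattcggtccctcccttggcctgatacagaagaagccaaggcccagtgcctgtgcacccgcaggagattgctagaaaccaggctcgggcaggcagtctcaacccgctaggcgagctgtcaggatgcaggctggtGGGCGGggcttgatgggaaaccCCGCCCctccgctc
Srebf1, last window: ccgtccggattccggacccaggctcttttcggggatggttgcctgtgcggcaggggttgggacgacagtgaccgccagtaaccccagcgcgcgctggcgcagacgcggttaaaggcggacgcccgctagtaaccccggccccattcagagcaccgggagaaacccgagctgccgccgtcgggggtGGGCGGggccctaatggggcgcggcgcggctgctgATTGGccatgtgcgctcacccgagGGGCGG
Msmo1: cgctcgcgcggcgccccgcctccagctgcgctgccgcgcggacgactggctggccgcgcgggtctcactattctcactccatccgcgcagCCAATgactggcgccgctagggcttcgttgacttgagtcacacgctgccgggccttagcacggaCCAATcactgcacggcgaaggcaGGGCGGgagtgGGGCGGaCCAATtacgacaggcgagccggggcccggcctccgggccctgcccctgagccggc
Lss: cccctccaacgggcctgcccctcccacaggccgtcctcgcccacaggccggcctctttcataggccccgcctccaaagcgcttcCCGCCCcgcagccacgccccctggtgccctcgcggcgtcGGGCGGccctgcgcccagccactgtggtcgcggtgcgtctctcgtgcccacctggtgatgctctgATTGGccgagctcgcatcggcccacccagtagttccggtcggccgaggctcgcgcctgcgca
Hmgcs1: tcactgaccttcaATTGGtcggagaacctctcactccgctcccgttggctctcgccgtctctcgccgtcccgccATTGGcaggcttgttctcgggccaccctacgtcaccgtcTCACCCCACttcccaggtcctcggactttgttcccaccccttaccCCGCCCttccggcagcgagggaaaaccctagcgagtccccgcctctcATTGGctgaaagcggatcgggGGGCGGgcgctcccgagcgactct
RefSeq windows were matched for 23 of the member genes, 31 windows in all, some of which overlap. None was matched for Fdps, Fdft1, Sqle, Stard4, Abcg1, Scd1 and Scd2. CCAAT was in 61.3% of them, against 33.8% of all 32851 windows of the same length, and GGGCGG was in 71.0%, against 32.7%. TCACNCCAC was in 3.23%, which is the Hmgcs1 window alone, against 1.05% of those 32851 windows. These letters are a description of the windows and not measured binding sites.

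Insm1, the targeted gene, had a lowest, median and highest log2 signal of 10.71, 11.08 and 11.30 in mutant islets, against 10.94, 11.24 and 11.60 in control islets. The difference of −0.25 ± 0.11 (SE, n = 8 each) did not pass the test (limma, adjusted p = 0.182), and the mutant was lower in 5 of 8 same-numbered pairs. A second Insm1 probe set, at means of 10.49 in mutant and 10.54 in control islets, gave −0.05, lower in 4 of 8 pairs. It did not pass when every probe set was tested (limma, adjusted p = 0.781). The sources used here do not place the probes relative to the deleted part, which makes this no check of the genotypes. Hormone and beta cell genes were bright on every array, with a mean over 10 islet markers of 13.61 to 13.87 in mutant and 13.72 to 13.98 in control islets. That mean was lower in the mutant by −0.12, in all 8 pairs, and Slc2a2 and Pdx1 among the markers fell (−0.89 and −0.56). Of the 10 marker differences, 6 were above 0, and their median was 0.01. Other cells were present too. The mean of 23 acinar markers ranged over 8.13 to 12.61 in mutant and 10.78 to 13.07 in control islets, with each mutant array below its same-numbered control. The mean of 20 immune markers was 7.06 to 9.06 in mutant and 7.01 to 8.19 in control islets. It was higher in the mutant by 0.42, though lower in 3 of 8 pairs. Of the 20 marker differences, 19 were above 0, and their median was 0.38. Among these markers 1 passed (5%, beside 8.76% of all genes), namely C1qa (0.88, limma, adjusted p = 0.00598), higher in all 8 pairs. As a sign of RNA quality, the 3′ minus 5′ log2 signal, averaged over control probes for Gapdh and beta-actin, was 0.28 to 0.47 in mutant and 0.33 to 0.57 in control islets, with mutant arrays below their same-numbered controls in all 8 pairs.

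Among the 30 measured genes, Srebf1 and Scd2 fell in mutant islets and none rose. These 2 are 6.67% of the members, beside 8.76% of all genes called in either direction and 4.66% called as lower in the mutant. The share of calls was thus close to that of all genes. At an unadjusted p under 0.05 there were 8 members (26.7%), all lower in the mutant, beside 21.4% of all genes in either direction. Of the 30 differences, 21 were below 0 (70%) and the median was −0.13, while over all genes 51.9% were below 0 with a median of −0.0058. With the replicate number as a block, 9 of the 30 passed (30%), all lower in the mutant, beside 17.6% of all genes in either direction and 9.71% lower. The 7 that passed only there were Fdps, Fdft1, Sqle, Lss, Msmo1, Insig2 and Elovl6. In 7 of the 30 genes (23.3%) the mutant was lower in 8 of 8 pairs, as it was in 7.21% of all genes, and in none was it higher in all 8. The plot of each member's difference with its interval shows the 5 roles side by side.

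**Figure D1:**
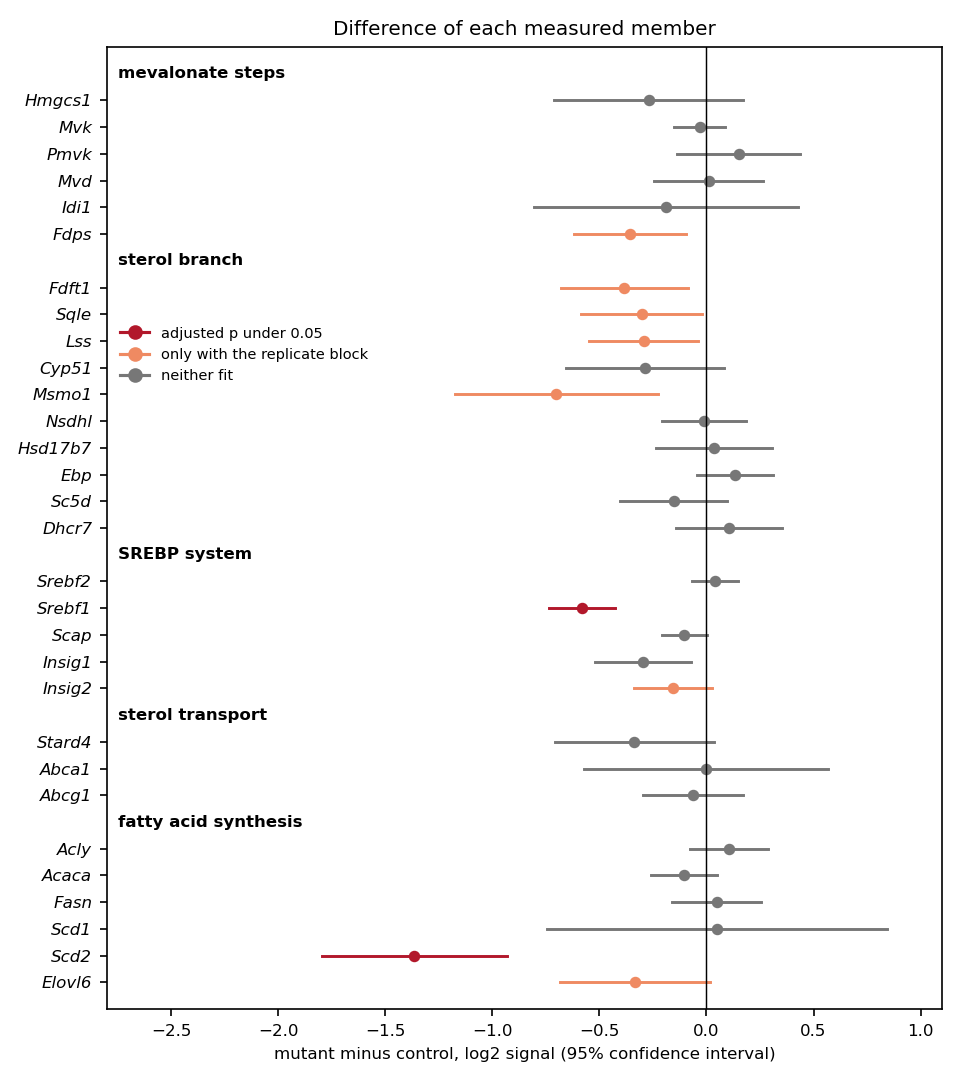
Difference of each measured gene (mutant minus control, log2 signal, horizontal axis) with its 95% confidence interval from the fit without the block, grouped by role down the page, from 8 mutant and 8 control arrays. Srebf1 and Scd2 passed in both fits, 7 further genes passed only with the replicate block, and the other 21 in neither.

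The SREBP system comprises the factors, their escort and their anchors. Srebf1 had a lowest, median and highest signal of 9.57, 10.01 and 10.13 in mutant islets, against 10.37, 10.58 and 10.61 in control islets. Every mutant array lay below every control array, and the control arrays sat close together. The difference was −0.58 ± 0.07 (SE, 95% interval −0.73 to −0.43), which puts the mutant signal at 0.669 times that of the control (limma, adjusted p = 6.11e-05), and with the block the adjusted p was 0.000158. As these are whole islets, less Srebf1 RNA per cell and fewer cells that express it cannot be told apart, and the same holds for every gene below. The array has a single probe set for Srebf1, so transcripts from its different starts shown above were not separated.

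Srebf2, the factor that mainly serves cholesterol synthesis, had 7.63, 7.89 and 7.91 as lowest, median and highest signal in mutant islets, against 7.70, 7.81 and 7.92 in control islets. The groups overlapped almost fully, and the difference was 0.04 ± 0.05 (95% interval −0.07 to 0.15; limma, adjusted p = 0.72). A dimmer second probe set gave −0.13 and did not pass either. The differences of Srebf1 and Srebf2 were themselves set against each other, a comparison chosen after their values were seen. Srebf1 minus Srebf2 changed by −0.62 in the mutant and went down in 8 of 8 pairs (exact permutation test over 12870 splits, two-sided, p = 0.000155, adjusted p = 0.000466 over 3 such comparisons). Neither p-value allows for that choice.

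Insig1, an anchor whose own gene is an SREBP target, had 9.98, 10.08 and 10.46 in mutant islets, against 10.10, 10.46 and 10.85 in control islets. Of the mutant arrays, 5 lay below the lowest control array. The difference of −0.29 ± 0.11 did not pass in either fit (limma, adjusted p = 0.102, and 0.067 with the block). Insig2, the second anchor, had 9.02, 9.29 and 9.55 in mutant islets, against 9.23, 9.51 and 9.69 in control islets. The groups overlapped, yet the mutant was the lower one in each of the 8 pairs. Its difference of −0.16 ± 0.09 did not pass without the block (limma, adjusted p = 0.319) and passed with it (adjusted p = 0.0303). Between Insig1 and Insig2 the differences were not told apart (−0.14, exact permutation p = 0.352). Scap, the escort, had 9.70, 9.75 and 9.86 in mutant islets, against 9.67, 9.88 and 10.01 in control islets, and the mutant arrays lay within the control range. Its difference was −0.10 ± 0.05 (limma, adjusted p = 0.238).

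The mevalonate steps were measured by 6 genes, and none passed without the block, beside 8.76% of all genes. At an unadjusted p under 0.05 in limma there was 1 of 6 (16.7%), beside 21.4% of all genes. With the block 1 of 6 passed (16.7%), beside 17.6% of all genes. Fdps, which joins isoprenoid units to farnesyl diphosphate, had the lowest p of the 6. It had 9.12, 9.58 and 10.08 in mutant islets, against 9.75, 9.95 and 10.40 in control islets, so the groups overlapped while each mutant array was below its same-numbered control. The difference was −0.36 ± 0.12 (limma, adjusted p = 0.0881) and passed with the block (adjusted p = 0.0053). A second Fdps probe set, at about 3.16 in both groups, is far below the array medians and gave no difference. Hmgcs1, which makes the precursor of mevalonate, differed by −0.27 and was lower in 6 of 8 pairs. Its probe set may cross-hybridise by its suffix. The other Hmgcs1 probe sets gave −0.26 to −0.80, lower in 6 to 8 pairs, and did not pass (limma, lowest adjusted p = 0.188). Idi1, which converts the isoprenoid units into each other, differed by −0.19 with the widest interval of the 6 (−0.81 to 0.43). The kinases Mvk and Pmvk differed by −0.03 and 0.15, and the decarboxylase Mvd by 0.01. Pmvk was the higher one in the mutant in 7 of 8 pairs, without passing in either fit (adjusted p = 0.592, and 0.101 with the block).

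The sterol branch held 10 measured genes. None passed without the block (limma, 4 of 10 at an unadjusted p under 0.05, beside 21.4% of all genes), and 4 passed as lower with it, beside 9.71% of all genes. Msmo1, the oxidase that removes methyl groups from the sterol ring, had 9.15, 9.38 and 10.55 in mutant islets, against 9.94, 10.24 and 11.11 in control islets. There were 5 mutant arrays below the lowest control array, and the other 3 reached into the control range. The difference was −0.70 ± 0.22, a 1.63-fold lower signal, and it missed the threshold without the block (limma, adjusted p = 0.0626) and passed with it (adjusted p = 0.00111). A dimmer Msmo1 probe set differed by −0.85 and passed when every probe set was tested (limma, adjusted p = 0.0263). The call of Msmo1 thus turned on the fit. Its difference stayed below 0 in the 31 alternatives, but was −0.10 when the block was fitted with acinar and immune means (adjusted p = 0.986).

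Fdft1, which commits farnesyl diphosphate to squalene, differed by −0.38 and was lower in 7 of 8 pairs (adjusted p = 0.11, and 0.00544 with the block). Its probe set may cross-hybridise by its suffix, and another, about as bright, gave −0.19 and did not pass. Sqle, the epoxidase of squalene, had 9.60, 9.84 and 10.30 in mutant islets, against 9.81, 10.18 and 10.80 in control islets, and differed by −0.30, with the mutant lower in all 8 pairs (limma, adjusted p = 0.197, and 0.00252 with the block). Lss, which closes the ring of lanosterol, differed by −0.29, also in all 8 pairs (adjusted p = 0.157, and 0.00371 with the block). Here too the probe set used may detect other transcripts by its suffix, and the 2 other Lss probe sets gave −0.04 and −0.02. Cyp51, the demethylase of lanosterol, differed by −0.29 and passed in neither fit.

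The remaining steps towards cholesterol were flat or mixed. Nsdhl and Hsd17b7, which complete the removal of the methyl groups, differed by −0.01 and 0.03. Ebp, an isomerase of the sterol ring, differed by 0.13, the desaturase Sc5d by −0.15 and Dhcr7, the last reductase measured here, by 0.11. None of these 5 passed in either fit, with adjusted p-values from 0.399 to 0.969 without the block and from 0.137 to 0.932 with it.

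**Figure D2:**
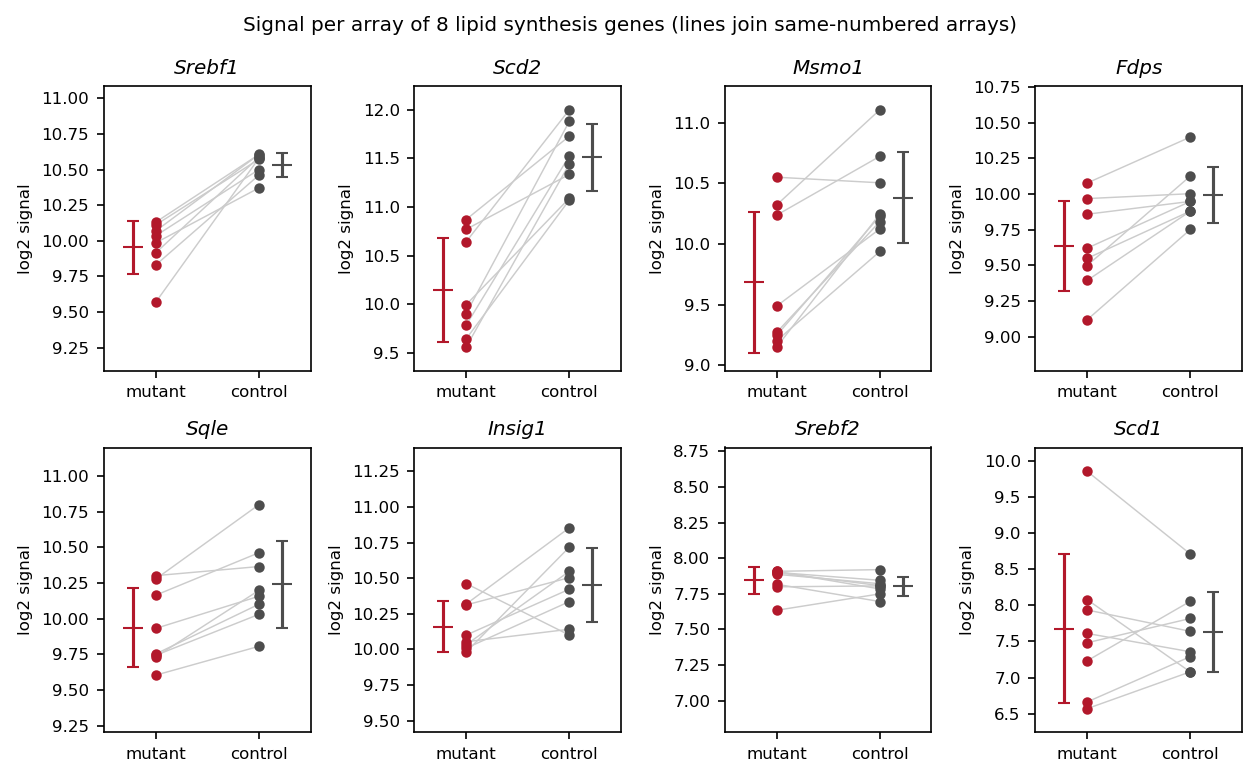
Log2 signal (vertical axis) of 8 genes on each mutant and control array, as points with grey lines between same-numbered arrays and bars for the mean ± SD (n = 8 each). Mutant and control points are fully apart for Srebf1 and Scd2, overlap for Fdps and Sqle though all 8 lines run the same way, and mix for Srebf2 and Scd1.

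The sterol enzymes varied together between arrays in both groups. The mean log2 signal of the 16 measured mevalonate and sterol enzymes in replicates 1 to 8 was 8.83, 8.72, 8.75, 9.31, 9.22, 8.72, 9.28 and 8.75 in mutant islets. In control islets it was 8.89, 8.96, 8.95, 9.63, 9.31, 9.01, 9.21 and 8.90. Replicates 4, 5 and 7 were thus the 3 highest of each group. For 11 of the 16 enzymes (68.8%) these were the 3 highest arrays in both groups, among them Hmgcs1, Idi1, Sqle, Cyp51, Msmo1 and Dhcr7, and the same held for 3.22% of all genes. This pattern was noticed in the values and is given as a description. On these arrays the acinar means were 9.02, 10.44 and 10.92 in mutant and 10.87, 12.06 and 11.80 in control islets, inside the range of the other arrays in the mutant group and in the control group. Srebf1 did not share this order, with replicates 4, 6 and 8 highest in mutant and 4, 7 and 8 in control islets.

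Within pairs, the mean of the 16 enzymes was lower in mutant islets in 7 of 8, by between −0.06 and −0.32, and higher by 0.07 in pair 7. In pair 4 the mutant was lower for 14 of the 16 enzymes, and in pair 7 for 7 of them. The map of pair differences shows Msmo1, Fdft1, Sqle and Lss lower in nearly every column, Pmvk higher in 7 of 8, and Hsd17b7, Ebp and Dhcr7 mixed.

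**Figure D3:**
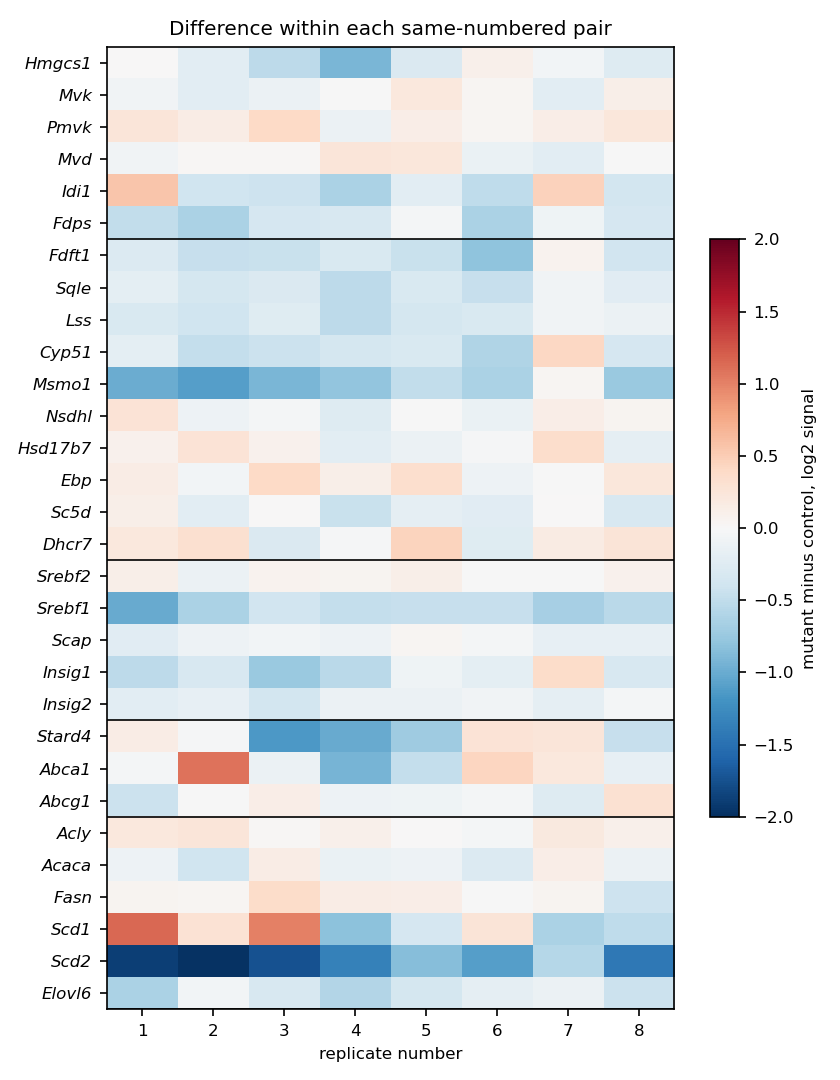
Colour map of the mutant minus control difference in log2 signal for each of the 30 genes (rows, grouped by role between the black lines) in each of the 8 same-numbered pairs (columns), blue where the mutant was lower. Scd2 and Srebf1 are blue in all 8 columns, and Scd1 is red in some and blue in others.

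Acinar markers were lower in the mutant as well. Of 23 acinar markers, 1 fell without the block (Bhlha15) and 20 did with it, and their mean differed by −1.38. The acinar mean was lower in the mutant in all 8 pairs, so acinar content and genotype cannot be told apart here. In pair 1, with the smallest acinar difference (−0.29), Srebf1 differed by −1.01 and Scd2 by −1.88. In pair 6, with the largest (−2.96), they differed by −0.46 and −1.10. The smallest Srebf1 difference (−0.39, with Scd2 at −1.74) was in pair 3, where the acinar difference was −0.50. The smallest Scd2 difference (−0.57, with Srebf1 at −0.67) was in pair 7, where it was −0.88. A relation between these differences was not tested. The acinar mean as a covariate left Srebf1 at −0.71 and Scd2 at −1.40, both still called, and took Fdps to −0.50 (limma, adjusted p = 0.0176). In a fit that held both the acinar mean and the block, Srebf1 (−0.75) and Scd2 (−1.65) were the 2 members called. Msmo1 differed there by −0.77 (adjusted p = 0.0925), Elovl6 by −0.42, Insig2 by −0.28, Fdps by −0.26, Lss by −0.22, Sqle by −0.14 and Fdft1 by −0.13. With the immune mean added as well, no member passed in limma, 4 had an unadjusted p under 0.05, and 2 of all 18193 genes passed. There Srebf1 differed by −0.95 and Scd2 by −0.78. Of the 7 genes that passed with the block only, Sqle, Fdps and Fdft1 then differed by 0.09, 0.05 and 0.19, Lss by −0.01, Msmo1 by −0.10, Insig2 by −0.13 and Elovl6 by −0.47.

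Of the 3 sterol transport genes, none passed in either fit, beside 8.76% of all genes without the block and 17.6% with it. By the probe sets used, none had an unadjusted p under 0.05 (limma), beside 21.4% of all genes. Stard4, which carries cholesterol between membranes, had the lowest p, with 7.57, 8.20 and 8.80 in mutant islets, against 7.91, 8.60 and 8.96 in control islets. The groups overlapped and the difference was −0.34 ± 0.18 (limma, adjusted p = 0.289), with the mutant lower in 5 of 8 pairs. A second Stard4 probe set, about as bright, gave −0.27, lower in 7 of 8 pairs. When every probe set was tested it had an unadjusted p of 0.0251 and did not pass (limma, adjusted p = 0.171). A dimmer Stard4 probe set gave −0.15 and did not pass either. The exporters Abca1 and Abcg1, known targets of the oxysterol receptors, differed by −0.00072 and −0.06. The interval of Abca1 was wide (−0.57 to 0.57), so a change of that size in either direction was not detectable here.

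In fatty acid synthesis 1 of 6 genes passed (16.7%), beside 8.76% of all genes. With the block 2 of 6 did (33.3%), beside 17.6% of all genes. Scd2, a desaturase that puts a double bond into saturated fatty acyl-CoA and is prominent in the brain, had 9.56, 9.95 and 10.87 in mutant islets, against 11.07, 11.48 and 12.00 in control islets. The highest mutant array lay below the lowest control array. The difference was −1.36 ± 0.20 (95% interval −1.79 to −0.93), a 2.57-fold lower signal (limma, adjusted p = 0.000344, and 0.000119 with the block). No other of the 30 genes differed by as much. Srebf1 and Scd2 were also the 2 members (6.67%) whose groups did not overlap, as was so for 2.29% of all genes. A second Scd2 probe set differed by −1.09 and passed, and another, dim and variable, differed by −0.87 and did not.

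Scd1, the main form in liver and fat, lies in the same gene cluster on chromosome 19 and did not pass. It had 6.57, 7.55 and 9.85 in mutant islets, against 7.08, 7.50 and 8.71 in control islets. Both groups spread widely and the mutant was the lower one in 4 of 8 pairs. The difference was 0.05 ± 0.38 (95% interval −0.74 to 0.84; limma, adjusted p = 0.964). Scd2 minus Scd1, a comparison chosen after the values were seen, changed by −1.41 in the mutant and went down in 7 of 8 pairs (exact permutation test, two-sided, p = 0.00901, adjusted p = 0.0135 over the 3 comparisons). Here too the p-values do not allow for that choice.

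The core of the pathway did not follow Scd2. Acly, which supplies acetyl-CoA from citrate, differed by 0.11, Acaca, which makes malonyl-CoA, by −0.11, and Fasn, the synthase itself, by 0.05, with no call in either fit. Acly was bright, at 13.47 to 14.02 in mutant and 13.42 to 13.85 in control islets, where the highest value of any probe set was 15.39. Whether its difference was compressed at this brightness was not tested. Dimmer Acly probe sets at means of 12.89 and 11.66 in mutant islets, against 12.72 and 11.40 in control islets, gave 0.17 and 0.26, higher in all 8 pairs, and did not pass (limma, adjusted p = 0.225 and 0.255). Elovl6, which lengthens palmitate, had 8.66, 9.21 and 9.64 in mutant islets, against 8.98, 9.41 and 10.04 in control islets. Its groups overlapped, all 8 pairs were lower in the mutant, and the difference of −0.33 ± 0.17 passed with the block only (limma, adjusted p = 0.26, and 0.00623 with the block).

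Fat cells express Scd and Pparg genes as well, and their markers were read from the same arrays. Of 8 adipocyte markers, none passed (limma, also none at an unadjusted p under 0.05), and their mean was 5.39 to 5.75 in mutant and 5.38 to 5.64 in control islets. Adipoq, a defining gene of fat cells, was at 3.84 to 4.40 in mutant and 3.92 to 4.67 in control islets, below every array median. Fabp4, which endothelium and macrophages express too, was at 8.49 to 10.60 in mutant and 8.02 to 9.64 in control islets. Stroma markers were at a mean of 8.14 to 8.95 in mutant and 8.07 to 8.60 in control islets, with Col1a2 and Dcn higher and Acta2 lower. As these markers moved in both directions, their mean is a mixed measure of stroma content, and single stroma cell types were not tested. With that mean as a covariate, Srebf1 differed by −0.62 and Scd2 by −1.31, both called. The 3′ minus 5′ signal as a covariate gave −0.59 and −1.46, again both called.

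**Figure D4:**
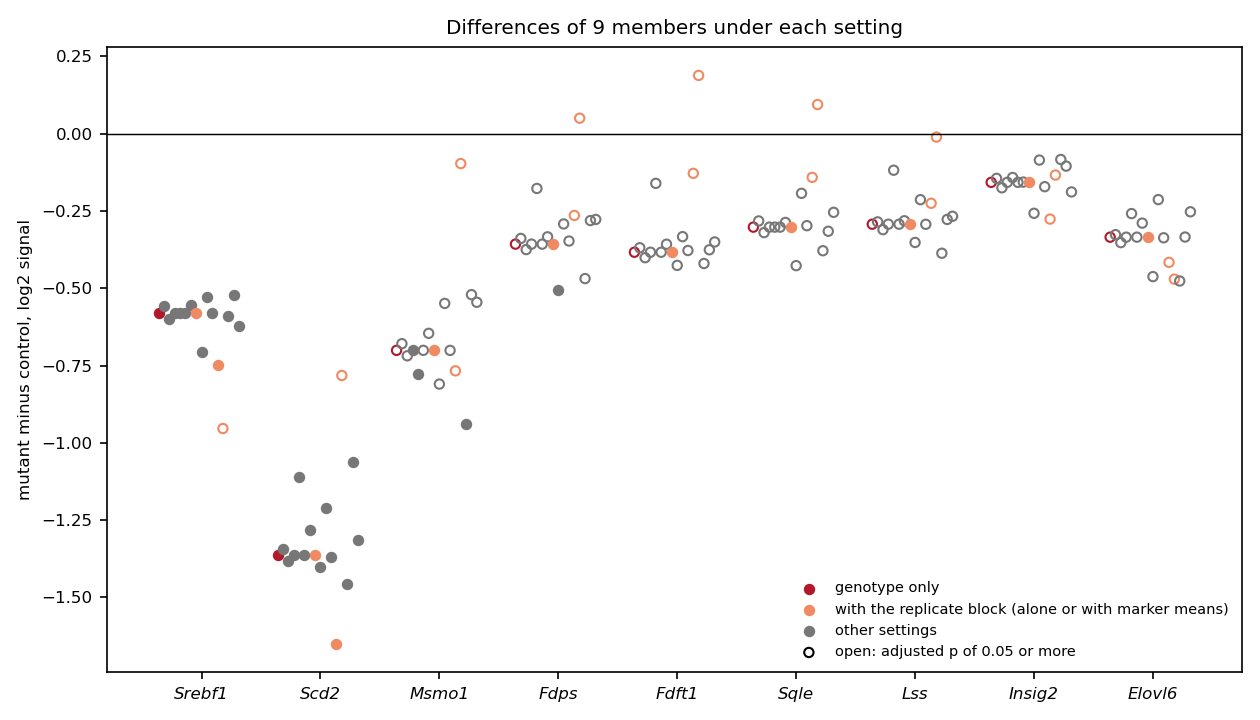
Difference (mutant minus control, log2 signal, vertical axis) of 9 genes under the fit with genotype only and under 15 alternatives other than leaving out single arrays, filled where the adjusted p was under 0.05. Srebf1 and Scd2 stay filled except with the block and both marker means, and Fdps, Fdft1 and Sqle cross 0 in that setting.

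Other genes of the same pathways were described from 2 further lists with 62 genes, of which 53 were measured. Of these, 6 fell and 2 rose, together 15.1% beside 8.76% of all genes. With the block, 14 fell and 3 rose, together 32.1% beside 17.6% of all genes, and 9.71% of all genes were lower there. Their median difference was −0.05, and 29 of the 53 (54.7%) were below 0, beside 51.9% of all genes.

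Pparg, a nuclear receptor of fat storage, showed the largest difference of the 53. It had 5.44, 6.13 and 6.36 in mutant islets, against 6.68, 7.17 and 7.50 in control islets, with no overlap. The difference was −1.08 ± 0.14, a 2.11-fold lower signal (limma, adjusted p = 0.000112), and since the mutant mean was below the array medians the fold may be understated. Mlxipl, the carbohydrate-responsive factor that switches on lipid synthesis with glucose, had 10.37, 10.89 and 11.65 in mutant islets, against 11.14, 11.59 and 12.01 in control islets. It was lower in all 8 pairs, by −0.70 ± 0.17 (limma, adjusted p = 0.0129).

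Acss2, which makes acetyl-CoA from acetate, had 7.89, 8.11 and 8.32 in mutant islets, against 8.19, 8.59 and 8.90 in control islets. It differed by −0.51 ± 0.10 (limma, adjusted p = 0.00237), and a second probe set by −0.66. Acss2 lies on chromosome 2, as Insm1 does, and none of the 30 members does. Scd3, another desaturase, differed by −0.36 ± 0.09 (adjusted p = 0.0183), with both group means below the array medians.

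Tm7sf2, a reductase of the sterol ring, had 7.37, 7.53 and 7.64 in mutant islets, against 7.74, 7.94 and 8.39 in control islets. The groups were apart, and the difference was −0.45 ± 0.08 (limma, adjusted p = 0.00129). Tmem97, a sterol-responsive protein of the endoplasmic reticulum and lysosome, had 7.37, 7.66 and 8.02 in mutant islets, against 7.81, 8.02 and 8.97 in control islets. It differed by −0.53 ± 0.14 (limma, adjusted p = 0.026), and this call was lost once the acinar mean entered the fit (−0.33, adjusted p = 0.149). Fitted with both the block and the acinar mean, 4 further genes were no longer called, with Tm7sf2 at −0.35 (adjusted p = 0.212), Acss2 at −0.48 (0.0718), Pparg at −0.80 (0.123) and Scd3 at −0.29 (0.408). Mlxipl was called there, at −0.76 (adjusted p = 0.0225).

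The 2 genes that rose did so by little. Rnf139, an ubiquitin ligase that binds Insig proteins, was at 10.12, 10.23 and 10.37 in mutant islets, against 9.86, 10.05 and 10.20 in control islets, and differed by 0.19 ± 0.05 (limma, adjusted p = 0.0408). Elovl1, an elongase of very long fatty acids, was at 9.35, 9.47 and 9.52 in mutant islets, against 9.18, 9.31 and 9.38 in control islets, and differed by 0.16 ± 0.05 (adjusted p = 0.0378). By its suffix the Elovl1 probe set may cross-hybridise, and the Elovl1 probe set without such a suffix gave 0.07 and did not pass. The call of Rnf139 was lost in 18 and that of Elovl1 in 17 of the 31 alternatives. Mbtps1, the protease that starts the release of SREBP, differed by 0.18 and was higher in all 8 pairs, and passed with the block only (adjusted p = 0.118, and 0.0143). The other 8 genes that passed with the block only were lower in the mutant, namely Elovl5 (−0.23), Acsl3 (−0.32), Lpcat3 (−0.36), Me1 (−0.39), Slc25a1 (−0.24), Hacd2 (−0.21), Mlx (−0.20) and Dgat2 (−0.18). These 9 are named after their values were seen.

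**Figure D5:**
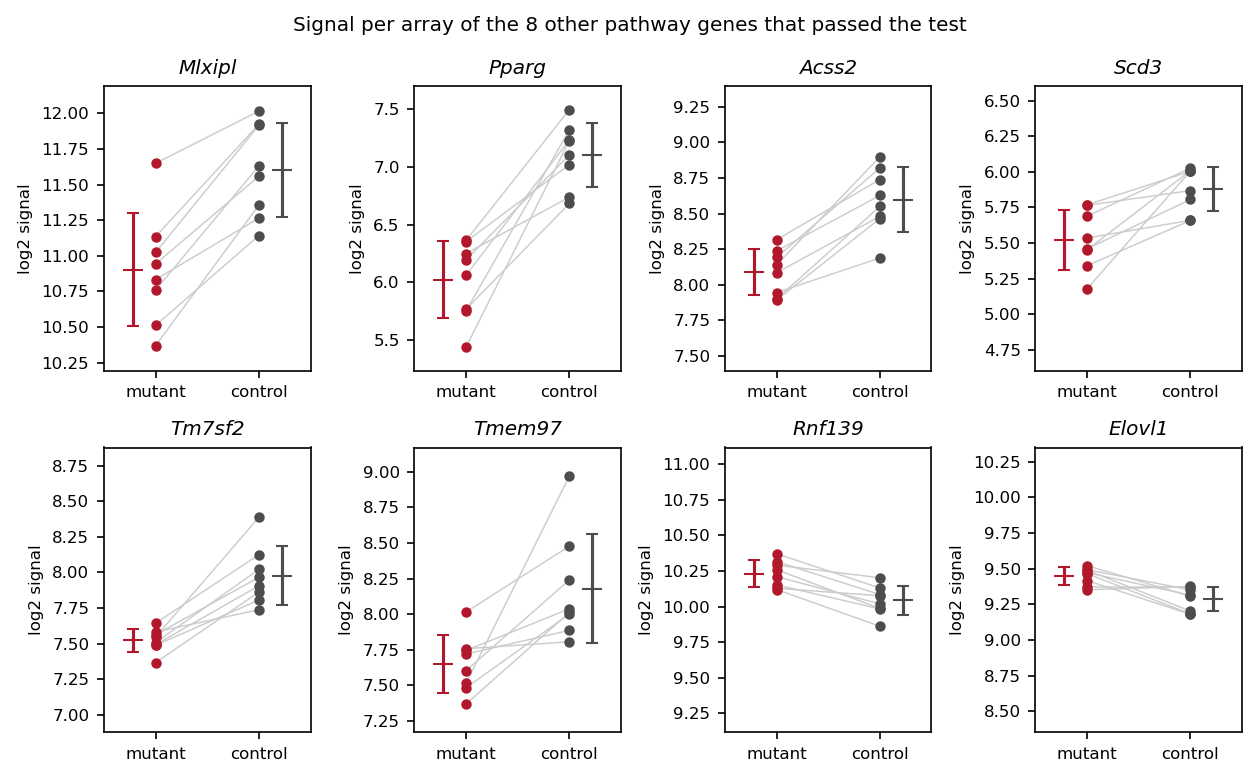
Log2 signal (vertical axis) of the 8 other pathway genes that passed the test on each mutant and control array, as points with grey lines between same-numbered arrays and bars for the mean ± SD (n = 8 each). Points of Pparg and Tm7sf2 are fully apart, and those of Rnf139 and Elovl1 are higher in the mutant but overlap.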

How the data were processed

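The labels' protocols give Trizol extraction of total RNA from islets, 150 ng per preparation and the 3′ IVT Express kit. The values are the log2 signals that the authors deposited, 1 per probe set of the Mouse430_2 array. For the authors' background correction, summarisation and normalisation, the method is not given in the sources used here. Medians per array were 6.29 to 6.35 and the highest value was 15.39, and no further scaling was applied. Precision is limited by the number of arrays.

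Of 45101 probe sets, 64 array controls were left out, 34945 named 1 gene in the platform annotation used here, 932 named several and 9160 named none. For 34741 of them the symbol was updated to RefSeq on GRCm38.p6. For each of 18193 genes the brightest probe set over the 16 arrays was used. The test was that of limma 3.58.1, run in R 4.3.3, with genotype as the only term in lmFit and a variance trend in eBayes. P-values were two-sided and adjusted by Benjamini-Hochberg over all genes, and calls were made at an adjusted p under 0.05. Python 3.11.15 with pandas 2.3.3 and scipy 1.17.1 made the counts and the exact permutation tests, and matplotlib 3.10.9 drew the figures. On simulated data for this comparison with 18193 genes, 82 of 100 genes changed 1.5-fold and 98 of 100 changed 3-fold were recovered. Of the genes called there, 3.23% had not been changed. In the real data the median SD over control arrays was 0.26 for the members and 0.15 for all genes. Over mutant arrays it was 0.26 and 0.16. Whether these rates hold for the members, or for same-numbered arrays that vary together, was not tested.

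In the labels both groups number their replicates alike. Same-numbered arrays deviated from their group means together, with a correlation of 0.237 to 0.735 over the 8 pairs and a median of 0.466, while the median between other numbers was −0.0978. They are thus called pairs and counted as such here. The main test, its intervals and the permutation tests did not use the pairing. A fit with the replicate number as a block is given where it changed a call or a count.

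The members, the other lists and the tests were chosen with earlier results of these data known. Given in full are called members, the genes of the SREBP system, the member with the lowest p in each role without a call, the called genes of the 2 lists of other pathway genes (up to 6 of each), and any gene singled out, which is then said. As alternatives, arrays were quantile normalised or median centred, and further fits used no dim genes, the mean of all probe sets of a gene, no variance trend, array weights, the block of replicate numbers, marker means or the 3′ minus 5′ control difference as covariates, the arrays without pairs 1 to 3, and the arrays without each one in turn. The stroma covariate was added after the data were seen. Promoter windows are those of RefSeq on GRCm38.p6, 250 bases before each listed transcript start, with chromosome 18 left out.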

Additional observations from a re-analysis of the deposited data

Results flagged for a closer look

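Of 60 groups of 8 arrays tested, 3 held an array whose gap to its nearest neighbour was large against the range of its group, a rule by which chance marks about 5% of groups. Scd1 in mutant replicate 1 was at 9.85, with the nearest mutant array at 8.08. Srebf2 in mutant replicate 2 was at 7.63, with the nearest at 7.80. Nsdhl in control replicate 4 was at 9.61, with the nearest at 9.16.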

How the results depend on the processing

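There were 31 alternatives, 16 of which left out 1 array each. Over the 30 members these gave 930 values, of which 911 kept their side of the threshold, 17 passed it and 2 no longer did, and no call changed its direction. Srebf1 and Scd2 were called in 30 of 31 each, over a range of −0.95 to −0.52 and −1.65 to −0.78, and were not called with the block, acinar and immune means together (−0.95, adjusted p = 0.240, and −0.78, adjusted p = 0.776). That limma fit called 2 genes, 0 members and 0 other pathway genes (1238, 4 and 6 at an unadjusted p under 0.05), and the cause was not tested. The block alone called 3200 genes against 1594, 9 members against 2 and 17 other pathway genes against 8. With the block and the acinar mean, 642 genes and 3 other pathway genes were called. Without pairs 1 to 3, which held the highest acinar means of the mutant group, 828 genes and 4 other pathway genes were called, with fewer arrays. The stroma covariate left 5 other pathway genes called.

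Leaving out single arrays gave 1324 to 1645 genes, 2 to 5 members and 6 to 10 other pathway genes called. The 5 came without mutant replicate 4, when Fdps, Fdft1 and Msmo1 were called too. Msmo1 was also called without mutant replicate 5 or 7, without dim genes, with the mean of its probe sets and with the 3′ minus 5′ covariate, and it shrank to −0.10 (adjusted p = 0.986) with the block, acinar and immune means. Insig1 was called without control replicate 7. Median centring split the calls of the other pathway genes into 1 higher and 9 lower, against 2 and 6. The number of arrays limits what could be seen: of the members, Scd1, Idi1 and Abca1 had the widest intervals.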
